A study of Mus musculus with 33 samples.

Results

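Proteases of the cathepsin family and the small proteins that hold them in check were followed in Treg, the Foxp3-expressing regulatory T cells, from mouse colon, sorted by 2 receptors: ST2 (gene Il1rl1), which binds IL-33, and TSLPR (gene Crlf2), which binds TSLP. The 9 genes described are 6 cathepsins (Ctsw, Ctsb, Ctsc, Ctsd, Ctsl and Ctsz) and 3 inhibitor genes (Cst7, Ctla2a and Ctla2b), found by symbol among the 53465 genes of the count table. The set was chosen by measured values: Ctsw, Cst7 and Ctla2a differ between gates or between naive and cancer mice in the counts of these same libraries. Their relatives were added by name, with earlier results of these data known. The values of those 3 genes between gates and status are therefore given as a description with no test, and tests are given for the other 6. Counts of called members beside the share of all genes are descriptions, as the set was not chosen independently of these data. The study asks how TSLP and IL-33 act on Treg in colorectal cancer. Colon Treg were sorted as CD45+TCR+CD4+Foxp3+ cells from 8 mice, and from each mouse 4 gates were taken: cells with both receptors (TSLPR+ST2+), with neither (TSLPR-ST2-) and with either alone (TSLPR+ST2- or TSLPR-ST2+). Mice 1 to 4 were naive. Mice 5 to 8 carried colitis-associated cancer, which was induced by 1 injection of azoxymethane at 10 mg/kg and 3 cycles of dextran sodium sulfate (the cycle number given for C57BL/6 mice), with tissue taken 2 weeks after the last of it. All 8 mice carry the genotype labelled Foxp3-yfp B6, a reporter that marks Foxp3-expressing cells, and the mice were 7 to 12 weeks old when bought. No group received azoxymethane alone or dextran sodium sulfate alone, so the 2 agents and the tumours cannot be told apart. Each group has 4 mice, and each library holds the RNA of 200 sorted cells.

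Cathepsins are proteases of the endosome and lysosome, where they break down proteins, process antigens and activate other enzymes. Cystatins and related small proteins bind and block the cysteine cathepsins, so the activity of a cathepsin depends on the inhibitor present with it as well as on its own level. In lymphocytes 1 branch of the system serves the cytotoxic granule: cathepsin C (Ctsc) trims granzymes into their active form, cystatin F (Cst7) inhibits cathepsin C after reaching the same compartment, and cathepsin W (Ctsw) is a protease known from natural killer and CD8 T cells. The Ctla2 proteins resemble the inhibitory propeptide of cathepsin L and inhibit cathepsins of that kind.

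Total counts of the 32 Treg libraries ranged from 4038718 to 8839946 (median 6433005), and levels are given as counts per 1000000 (CPM) of TMM-scaled totals. The sort genes were read first. Il1rl1 was at 95.5 to 308 CPM in the ST2+ libraries and at 0 to 11 in the ST2- libraries. Crlf2 was at 25.1 to 57.1 CPM in the TSLPR+ libraries and 8.74 to 30.5 in the TSLPR- libraries, and the overlap comes from cancer mouse 5, whose library labelled TSLPR-ST2+ held 30.5 and whose library labelled TSLPR+ST2+ held 25.1. In Crlf2 these 2 libraries go against the order of their labels, so values of Ctla2a, Cst7 and Ctsw, and of Ctsd by status, are also given without them. Foxp3 (59.8 to 221 CPM), Cd4 (233 to 761) and Cd3e (493 to 1058), which mark the sorted cells, were found in every Treg library. The level of Foxp3 was not even: its median was 109 CPM in the ST2+ and 164 in the ST2- libraries. In TSLPR+ST2+ Treg it was at 148, 187, 107 and 175 CPM in naive and 84.8, 59.8, 94.3 and 122 in cancer mice. What this means for the member levels was not tested. The mitochondrial share of counts, summed per mouse, was 0.775% to 1.15% in the naive mice and 1.39% to 1.88% in the cancer mice, so it cannot be told apart from status. These are bulk libraries, in which fewer cells of a type and less RNA per cell cannot be told apart.

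The members differed widely in level. Per kilobase of exon, the mean over the 32 Treg libraries was 191 CPM per kilobase for Ctsz, 187 for Cst7, 164 for Ctsw and 149 for Ctsb, followed by Ctsd at 83.2 and Ctsc at 41.8. Ctla2a (6.62), Ctsl (3.53) and Ctla2b (0.142) were far lower on the same scale. On this scale the granule-linked inhibitor Cst7 and protease Ctsw lay at the level of the general lysosomal enzymes Ctsz and Ctsb, while Ctla2b was close to the detection limit. The order depends on the length of all annotated exons, which is 6051 bases for Ctsb and 986 for Cst7. Without this division the mean CPM was 904 for Ctsb, 309 for Ctsw, 275 for Ctsz and 184 for Cst7, and Ctsl (22.9) was above Ctla2a (13.9). In GRCm38, with genes from GENCODE M21, Ctla2a (chr13:60934155-60936625) and Ctla2b (chr13:60895350-60897447) lie on the minus strand of chromosome 13, and Ctsl (chr13:64359337-64370890) on the same strand farther along. Cst7 (chr2:150570415-150578944, plus strand) and Ctsz (chr2:174427493-174439039, minus strand) are on chromosome 2, and Ctsc (chr7:88278085-88310888, plus strand) and Ctsd (chr7:142375911-142388038, minus strand) on chromosome 7. Ctsb is at chr14:63122462-63145923 on the plus strand and Ctsw at chr19:5465043-5468507 on the minus strand.

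The 2 Ctla2 genes are near copies, which bears on what their counts mean. The coding sequence of Ctla2b matched that of Ctla2a at 326 of 339 aligned bases (96.2%). The 250 bases before their starts, as printed below, matched at 208 of 228 aligned bases (91.2%). The longest stretch without a difference is shown because it is longer than the 58-base reads, so a read inside it cannot be placed in 1 gene. It covers coding bases 327 to 411 of Ctla2a, counted from the A of the start codon, and 255 to 339 of Ctla2b.
Ctla2a and Ctla2b: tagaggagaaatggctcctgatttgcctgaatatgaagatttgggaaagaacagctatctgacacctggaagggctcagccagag
Of the 58-base windows along the exons of Ctla2a, 22.3% also occur in another gene, 8.8% in Ctla2b itself. For Ctla2b the share was 66.9%, most of it with an overlapping gene model (Gm49391) that held 0 counts in every library. A level of Ctla2b therefore depends on how the counting treated such reads, a setting not given in the sources used here. Of the windows of Ctsd 32% are shared with Gm49369, of Ctsb 12% with Fdft1 on the other strand and of Ctsl 25.8% with other genes, mostly models at 0 in every library, so part of their reads may be missing from these counts. The share was 0.2% for Ctsc and 0 for Ctsw, Ctsz and Cst7. The likeness to their target family is visible at the level of DNA too: the best local alignment of the Ctla2a coding sequence with that of Ctsl had 146 identical bases of 238 (61.3%), between bases 59 to 298 of Ctla2a and 26 to 265 of the 1002-base Ctsl sequence. For Ctla2b it had 133 of 218 (61.0%).

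The starts of the 2 genes are shown because Ctla2a was highest in cancer TSLPR+ST2+ Treg, and the near copy allows the 2 starts to be compared. RefSeq starts were found for 7 of the 9 members, Ctsw and Ctsb being the other two. Each line gives the 250 bases before the start from RefSeq on GRCm38.p6, minus strand, 5′ to 3′; the capitals mark TGANTCA, the letters of an AP-1 type motif.
Ctla2a, chr13:60936626-60936875: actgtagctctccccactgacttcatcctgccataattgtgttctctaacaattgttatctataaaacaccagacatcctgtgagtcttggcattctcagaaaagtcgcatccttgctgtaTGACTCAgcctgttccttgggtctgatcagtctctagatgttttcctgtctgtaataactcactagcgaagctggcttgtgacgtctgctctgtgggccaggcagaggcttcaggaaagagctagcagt
Ctla2b, chr13:60897448-60897697: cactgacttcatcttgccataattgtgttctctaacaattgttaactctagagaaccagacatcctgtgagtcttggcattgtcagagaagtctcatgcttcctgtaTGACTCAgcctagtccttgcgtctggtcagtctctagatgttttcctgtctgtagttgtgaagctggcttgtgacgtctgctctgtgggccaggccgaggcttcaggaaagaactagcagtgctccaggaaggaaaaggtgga
The motif begins at position -129 from the printed start in Ctla2a and at -143 in Ctla2b. From another RefSeq start of Ctla2a (window chr13:60936567-60936816, not printed here) the same motif begins at -188. It is its own reverse complement, so both strands are read at once, and it occurs in 6.75% of the 32851 promoters of the same length in the table. The match is a description of the letters and no evidence that a factor binds there. It was not found in these windows of Cst7, Ctsz, Ctsc, Ctsd or Ctsl.

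Ctla2a had the widest range of group means, as a fold, among the 8 members that passed the filter on low counts. In naive mice 1 to 4 it was at 0.877, 2.71, 3.05 and 6.88 CPM in TSLPR-ST2- Treg, at 5.53, 6.18, 5.31 and 1.79 in TSLPR-ST2+, at 7.39, 5.7, 4.66 and 11.5 in TSLPR+ST2- and at 19.2, 8.68, 15.4 and 9.77 in TSLPR+ST2+. In cancer mice 5 to 8 it was at 4.97, 5.3, 0 and 2.18 CPM in TSLPR-ST2-, at 7.48, 30.5, 31.1 and 25.7 in TSLPR-ST2+, at 16.5, 8.85, 16.3 and 9.13 in TSLPR+ST2- and at 36.7, 35.5, 42.6 and 58.7 in TSLPR+ST2+. All 4 cancer TSLPR+ST2+ libraries lay above every other library, and the double-negative gate had the lowest mean in both kinds of mouse. The library at 0 held no Ctla2a count, which allows up to 0.481 CPM (3 counts, counting error only). The group means ran from 3.11 ± 2.5 (SD, n = 4) in cancer TSLPR-ST2- to 43.4 ± 10.7 in cancer TSLPR+ST2+, with cancer TSLPR-ST2+ next at 23.7 ± 11.1, and all lower neighbours in that order overlapped. Between cancer and naive mice the estimate of log2 fold change was 2.33 (SE 0.69, 5.02-fold) in TSLPR-ST2+, 1.72 (SE 0.67, 3.29-fold) in TSLPR+ST2+, 0.80 in TSLPR+ST2- and -0.11 in TSLPR-ST2-. The difference by status was thus largest in the 2 ST2+ gates, as estimated, and the difference of that difference (ST2 by status) was 1.68 on the log2 scale (SE 0.66). No gene in the table passed for this interaction by edgeR, so a larger status difference in the ST2+ gates was not shown by a test. Without the 2 libraries of cancer mouse 5 the mean of cancer TSLPR-ST2+ was 29.1 ± 2.94 (n = 3) and that of TSLPR+ST2+ 45.6 ± 11.9, and the 2 log2 estimates were 2.62 and 1.78. Over all gates, the per-mouse sums were 8.17, 6.12, 7.62 and 7.52 CPM in the naive mice and 14.1, 18.6, 21.1 and 23.3 in the cancer mice, which do not overlap (2.62-fold, log2 1.39, SE 0.21). In TSLPR+ST2+ Treg 6 of 9 tested epithelial markers were also higher in the cancer mice, with sums over 11 markers of 161 to 332 CPM in naive and 196 to 15048 in cancer libraries, and their part in the Ctla2a levels was not tested. The 3 cancer libraries with epithelial sums of 196 to 554 CPM held Ctla2a at 36.7, 35.5 and 58.7 CPM.

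By gate, Ctla2a averaged 21.3 ± 16.6 CPM in the 16 ST2+ libraries and 6.63 ± 4.91 in the 16 ST2- libraries (model estimate 2.84-fold), and was higher with ST2 in 7 of 8 mice. With TSLPR it averaged 19.2 ± 15.7 CPM and without it 8.72 ± 10.4 (2.60-fold), and the difference had this direction in 8 of 8 mice. Ctla2b held 45 counts in all 32 libraries together and 0 in 13 of them, where 3 counts would be 0.339 to 0.743 CPM. The 4 cancer TSLPR+ST2+ libraries, where Ctla2a was highest, held 4, 7, 1 and 11 Ctla2b counts, and no library of another group held more than 3. It was too low to be tested and was the 1 member that did not pass the filter on low counts.

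Cst7 separated by TSLPR. In the naive mice it was at 90.7, 84.9, 69.6 and 76.2 CPM in TSLPR-ST2-, at 103, 197, 132 and 106 in TSLPR-ST2+, at 261, 251, 195 and 165 in TSLPR+ST2- and at 299, 321, 227 and 286 in TSLPR+ST2+. In the cancer mice the values were 131, 126, 125 and 146 CPM in TSLPR-ST2-, 113, 156, 182 and 103 in TSLPR-ST2+, 218, 239, 228 and 213 in TSLPR+ST2- and 349, 228, 220 and 251 in TSLPR+ST2+. In each mouse both TSLPR+ libraries were higher than the TSLPR- library of the same ST2 status, and naive TSLPR-ST2- was the lowest group, with no overlap with the next one (80.4 ± 9.34 against 132 ± 9.45 CPM in cancer TSLPR-ST2-). The means were 247 ± 47.4 CPM in TSLPR+ and 121 ± 36.0 in TSLPR- libraries (2.07-fold, log2 1.05, SE 0.10, higher in 8 of 8 mice). Without the 2 doubted libraries of mouse 5 the Cst7 mean was 233 ± 16.0 CPM in cancer TSLPR+ST2+ (262 ± 59.5 with them) and 147 ± 40.4 in cancer TSLPR-ST2+ (139 ± 37.1). With ST2 the difference was smaller, 205 ± 81.8 against 164 ± 66.1 CPM (1.28-fold, higher in 7 of 8 mice). Per mouse there was little between naive (186, 223, 160 and 172 CPM) and cancer (185, 184, 184 and 174), and the log2 estimate was -0.03. Only in TSLPR-ST2- was the estimate by status above 0.5 in size (log2 0.72, SE 0.19, 1.64-fold). That this gate differs from the others in its status effect was not shown by a test: no gene in the table passed for TSLPR by status or ST2 by status, and the 2 estimates for Cst7 were both -0.41.

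**Figure D1:**
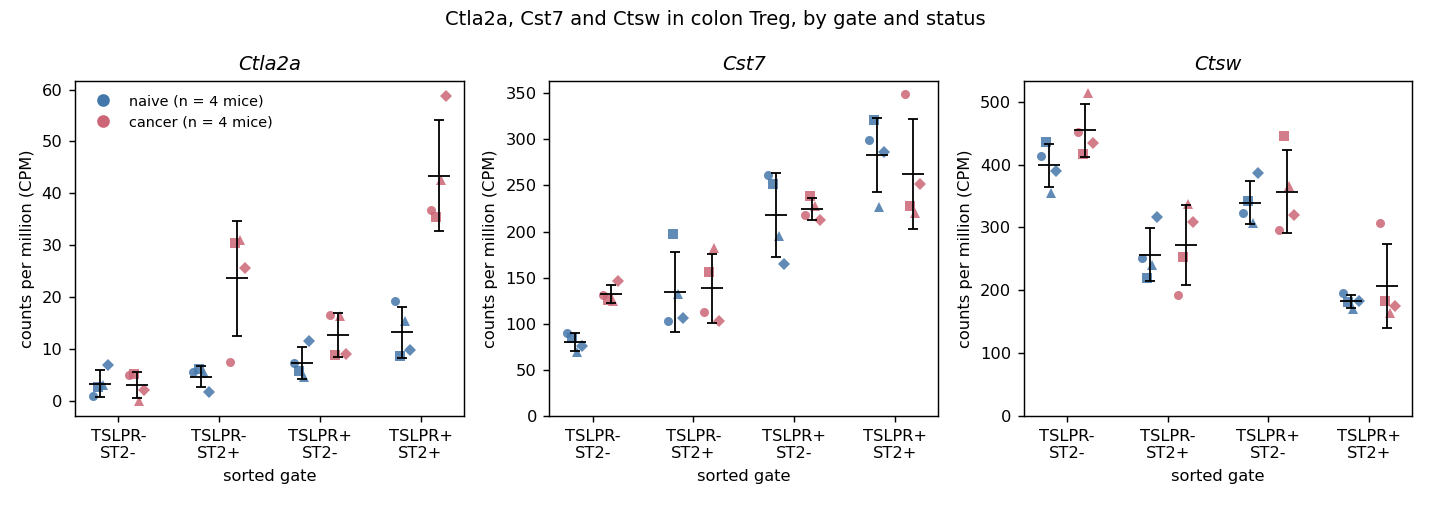
Levels of Ctla2a, Cst7 and Ctsw in CPM (y axis) by gate (x axis) in naive and cancer mice; each dot is 1 library, and bars give the mean ± SD of 4 mice. Ctla2a reached 35.5 to 58.7 CPM in cancer TSLPR+ST2+ Treg, Cst7 was higher in the TSLPR+ gates, and Ctsw was lowest in naive TSLPR+ST2+ Treg at 183 ± 10.4 CPM.

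Ctsw ran the other way. It was at 414, 436, 355 and 389 CPM in naive TSLPR-ST2- Treg, at 323, 342, 307 and 386 in TSLPR+ST2-, at 252, 219, 240 and 317 in TSLPR-ST2+ and at 196, 182, 171 and 183 in TSLPR+ST2+. In the cancer mice it was at 452, 417, 514 and 435 CPM in TSLPR-ST2-, at 296, 446, 366 and 320 in TSLPR+ST2-, at 192, 253, 337 and 308 in TSLPR-ST2+ and at 307, 183, 164 and 176 in TSLPR+ST2+. The order of the gates was the same in both kinds of mouse: double-negative, TSLPR+ST2-, TSLPR-ST2+, double-positive, with each neighbour overlapping in the order of all 8 groups. ST2+ libraries averaged 230 ± 59.1 CPM and ST2- libraries 387 ± 61.6 (1.69-fold lower, log2 -0.76, SE 0.08, lower in 8 of 8 mice). TSLPR+ libraries averaged 272 ± 91.6 and TSLPR- libraries 346 ± 96.0 (1.29-fold lower, log2 -0.36, lower in 7 of 8 mice). The mouse that broke the TSLPR order, on the log2 scale, was mouse 5, whose double-positive library stood at 307; without its 2 doubted libraries the cancer double-positive mean was 174 ± 9.6 CPM (207 ± 66.8 with them) and the TSLPR estimate log2 -0.46. Per mouse, Ctsw was at 297, 279, 265 and 301 CPM in naive and 307, 335, 355 and 312 in cancer mice (log2 0.20).

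Ctsb, a lysosomal cysteine endopeptidase, was the member with the most counts. In the naive mice it was at 612, 677, 614 and 573 CPM in TSLPR-ST2-, at 696, 702, 1164 and 775 in TSLPR-ST2+, at 1151, 1248, 946 and 1104 in TSLPR+ST2- and at 1375, 1559, 1223 and 1191 in TSLPR+ST2+. In the cancer mice it was at 635, 604, 590 and 558 in TSLPR-ST2-, at 658, 616, 586 and 899 in TSLPR-ST2+, at 1063, 1101, 924 and 834 in TSLPR+ST2- and at 1139, 1036, 1160 and 917 in TSLPR+ST2+. Every TSLPR+ library was above every double-negative library, and only naive mouse 3 and cancer mouse 8 brought TSLPR-ST2+ values into the range of the TSLPR+ gates. Ctsz, the carboxypeptidase also called cathepsin X, was highest in the double-positive gate: 487, 525, 374 and 439 CPM in naive and 325, 376, 467 and 286 in cancer mice. It was at 177, 217, 203 and 166 CPM in naive TSLPR-ST2- and at 116, 156, 183 and 162 in cancer TSLPR-ST2-. The single-positive gates lay between, at 272, 262, 381 and 241 (naive) and 208, 214, 173 and 279 (cancer) with ST2, and at 254, 307, 271 and 239 (naive) and 316, 233, 206 and 276 (cancer) with TSLPR. In both kinds of mouse the double-positive and double-negative groups did not overlap for Ctsz.

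Ctsd, the lysosomal aspartic protease, was higher in the ST2+ gates of the naive mice on average. It was at 169, 164, 206 and 164 CPM in naive TSLPR-ST2-, at 143, 185, 154 and 152 in TSLPR+ST2-, at 237, 163, 425 and 238 in TSLPR-ST2+ and at 292, 257, 348 and 294 in TSLPR+ST2+. In the cancer mice it was at 196, 138, 145 and 145 in TSLPR-ST2-, at 130, 163, 134 and 110 in TSLPR+ST2-, at 265, 135, 176 and 328 in TSLPR-ST2+ and at 123, 118, 180 and 180 in TSLPR+ST2+. The naive double-positive libraries were all above the cancer double-positive ones, the 1 gate in which a tested member differed by status. The start of Ctsd is shown because cathepsin D is a textbook lysosomal gene and its start holds, in capitals, CACGTG, the letters of the E-box core of the motif that lysosomal gene regulators of the TFEB type bind. The line gives RefSeq sequence on GRCm38.p6, minus strand, 5′ to 3′.
Ctsd, chr7:142387828-142388077: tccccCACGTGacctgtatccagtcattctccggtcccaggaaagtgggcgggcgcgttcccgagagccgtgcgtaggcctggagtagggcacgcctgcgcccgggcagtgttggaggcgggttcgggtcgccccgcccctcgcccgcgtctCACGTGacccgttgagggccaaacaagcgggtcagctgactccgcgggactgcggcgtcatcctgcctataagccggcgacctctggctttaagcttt
The letters begin at positions -245 and -98 from the start, and CACGTG, its own reverse complement, was found in 6.02% of the 32851 promoters. Ctsl held it once, at -236, and the windows of Cst7, Ctsz, Ctsc, Ctla2a and Ctla2b did not hold it. Both motifs were chosen after the sequences were seen.

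Ctsc and Ctsl showed no difference that passed the edgeR test in any comparison. Ctsc, the granzyme-activating dipeptidyl peptidase, lay between 135 and 416 CPM in the 32 libraries, with group means from 198 in cancer TSLPR-ST2+ to 312 in naive TSLPR+ST2+. Ctsl, the cysteine endopeptidase whose propeptide the Ctla2 proteins resemble, was low and variable, at 2.46 to 98.8 CPM (15 to 443 counts). Its 3 highest libraries were cancer TSLPR+ST2+ from mouse 7 (98.8) and mouse 6 (65.5) and naive TSLPR+ST2+ from mouse 1 (53.8), while cancer TSLPR+ST2+ from mouse 8 held 9.95. The mean of cancer TSLPR+ST2+ was 49.9 ± 40.2 CPM, so the spread within the group was nearly as large as its level. The library at 98.8 also had the largest sum of 11 epithelial marker genes, 15048 CPM against 196 to 554 in the other 3 libraries of its group; the part of that in its Ctsl level was not tested.

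**Figure D2:**
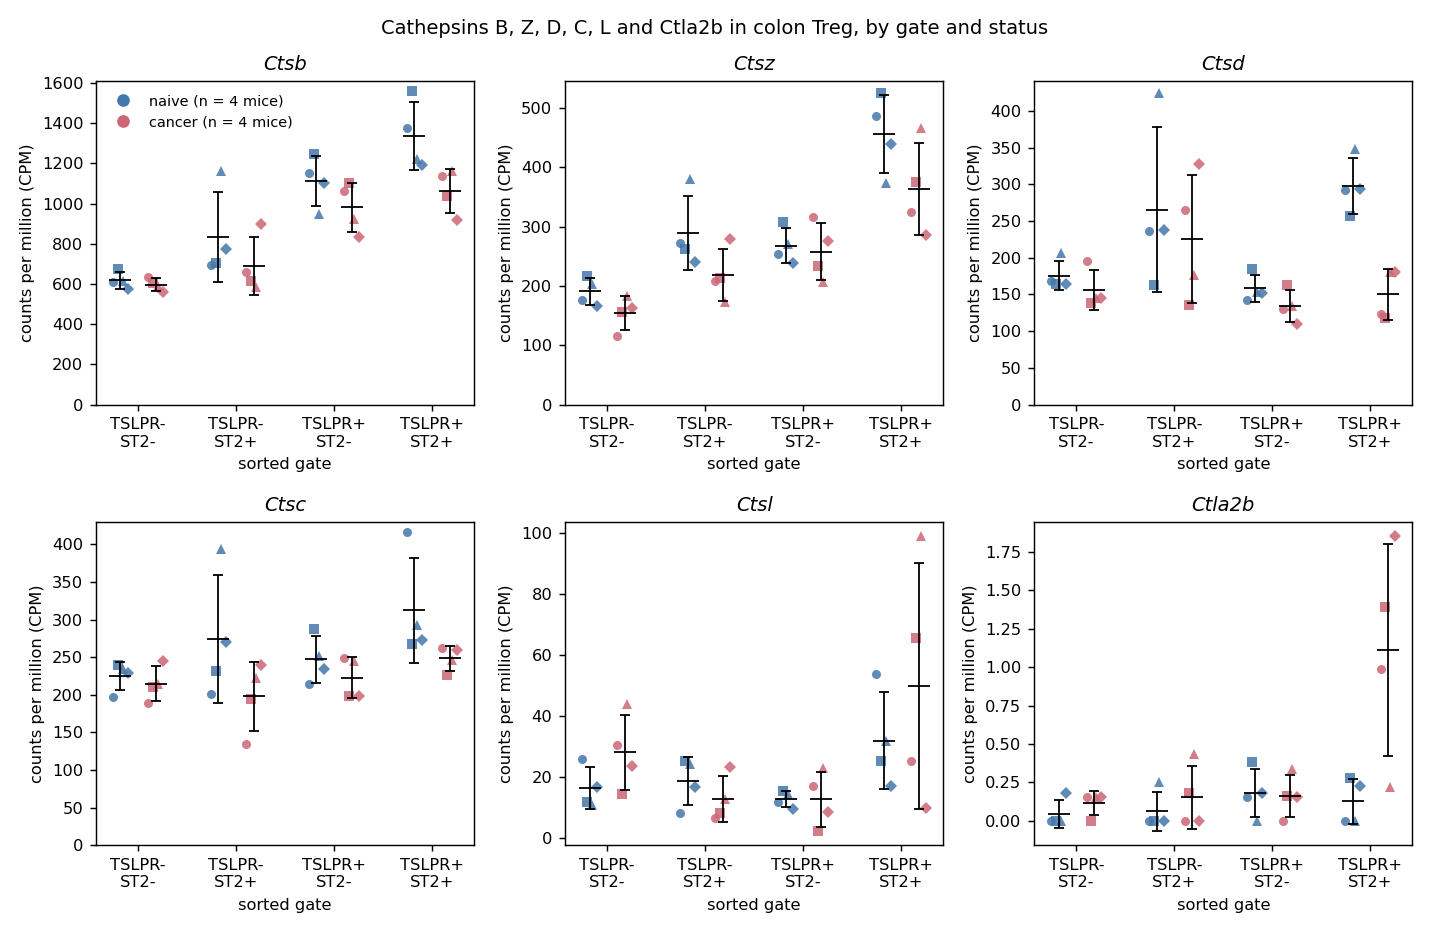
Levels of Ctsb, Ctsz, Ctsd, Ctsc, Ctsl and Ctla2b in CPM (y axes, each from its own scale) by gate in naive and cancer mice; dots are libraries and bars the mean ± SD of 4 mice. Ctsb was at 834 CPM or more in all 16 TSLPR+ libraries, and Ctsd in TSLPR+ST2+ Treg was 298 ± 37.5 CPM in naive and 150 ± 34.7 in cancer mice.

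Between cancer and naive mice, with the 4 gates of a mouse summed, Ctsz and Ctsb fell. Ctsz was at 297, 342, 319 and 292 CPM in the naive mice and at 233, 236, 238 and 251 in the cancer mice, a 1.30-fold lower level without overlap (log2 -0.38, SE 0.06, edgeR adjusted p = 0.0308). Ctsb was at 952, 1076, 1022 and 941 CPM against 841, 827, 774 and 802, which is 1.23-fold lower, also without overlap (log2 -0.30, SE 0.05, edgeR adjusted p = 0.0363). That makes 2 of the 5 tested members lower, where 0.926% of all 15338 genes tested were lower and 1.21% were called in either direction. The members were chosen with earlier results of these data known, so this count is a description. Ctsd was at 197 to 299 CPM in naive and 139 to 195 in cancer mice, Ctsc at 255 to 302 and 201 to 235, and Ctsl at 15.3 to 25.0 and 16.7 to 39.5, and these 3 did not pass by edgeR. At an unadjusted edgeR p under 0.05 there were 4 of the 5 members, and 2586 of all 15338 genes. DESeq2 called 3 members (Ctsz, Ctsb and Ctsc), and over all genes it called more than edgeR, as given near the end. The calls for Ctsz and Ctsb were lost when any 1 mouse was left out (adjusted p 0.0519 to 0.094 for Ctsz and 0.0618 to 0.105 for Ctsb) and with the mitochondrial share or the macrophage marker sum described further on as a covariate. Cd68 (2.38-fold) and C1qb (2.19-fold), 2 of 14 tested macrophage and dendritic cell markers, were lower in the cancer mice as well. The other 12 were not called, and the list median was log2 -0.15. Some, such as Adgre1 and Mrc1, had a higher mean in the cancer mice. The part of such cells was not tested.

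Within single gates, 1 of the tested cathepsins passed for status. In TSLPR+ST2+ Ctsd fell and was 1.97-fold lower in the cancer mice (log2 -0.98, SE 0.23, edgeR adjusted p = 0.0168), 1 of 5 tested members, where 2.5% of 14861 genes were lower and 4.16% were called in all. Without the 2 doubted libraries of mouse 5 the log2 value was -0.90 and the adjusted p 0.0553. The mitochondrial share was 0.618% to 1.241% in the naive and 1.427% to 3.232% in the cancer libraries of that gate, and with this share as a covariate the Ctsd estimate was log2 -0.06 (adjusted p = 0.987). The macrophage and dendritic cell marker sum was lower along with Ctsd, at 1450 to 2302 CPM in naive and 478 to 928 in cancer libraries of the gate, and with it as a covariate the adjusted p was 0.0618 (log2 -0.82). Of the 14 tested markers 0 passed by edgeR for status in that gate, with a median of log2 -0.02. None of the 5 tested members passed in TSLPR-ST2- (0.209% of all genes called), TSLPR-ST2+ (0.202%) or TSLPR+ST2- (0.0471%) by edgeR, DESeq2 or limma. At an unadjusted edgeR p under 0.05 there were 0, 2 and 0 members in these gates, the 2 being Ctsc and Ctsz. Over all 14861 genes there were 1101, 1568 and 1100.

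ST2+ Treg had more Ctsz, Ctsd and Ctsb transcript than ST2- Treg. Ctsz averaged 332 ± 108 CPM in the 16 ST2+ and 218 ± 57.2 in the 16 ST2- libraries (1.51-fold, log2 0.59, SE 0.09, edgeR adjusted p = 4.59e-05) and was higher in 8 of 8 mice. Ctsd averaged 235 ± 88.3 and 156 ± 24.9 CPM (1.47-fold, log2 0.55, SE 0.12, edgeR adjusted p = 0.0031), higher in 7 of 8 mice. By gate the Ctsd means with and without ST2 differed least in cancer TSLPR+ Treg, at 150 ± 34.7 and 134 ± 21.6 CPM. They were 226 ± 87.1 and 156 ± 27.1 in cancer TSLPR- Treg. In naive mice they were 266 ± 112 and 176 ± 20.0 (TSLPR-) and 298 ± 37.5 and 159 ± 18.5 (TSLPR+). Ctsb averaged 981 ± 293 and 827 ± 246 CPM (1.19-fold, log2 0.26, SE 0.07, edgeR adjusted p = 0.0248), also higher in 7 of 8. Thus 3 of 5 tested members were higher and none lower, where 3.7% of all genes tested were higher and 6.04% were called. Ctsc (258 against 227 CPM) and Ctsl (28.3 ± 24.8 against 17.5 ± 9.98) did not pass. Of 14 tested macrophage and dendritic cell markers 10 were higher with ST2 as well, and with their summed level as a covariate none of the 3 calls was kept (log2 0.32 for Ctsz, 0.22 for Ctsd and 0.01 for Ctsb). The Ctsb call was also lost when mouse 3, 4, 7 or 8 was left out and with the MHC class II sum as a covariate (adjusted p = 0.228).

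TSLPR+ Treg had more Ctsb and Ctsz. Ctsb averaged 1123 ± 182 CPM in the 16 TSLPR+ and 685 ± 154 in the 16 TSLPR- libraries (1.65-fold, log2 0.72, SE 0.07, edgeR adjusted p = 1.96e-08), and Ctsz 336 ± 98.2 and 213 ± 63.5 (1.58-fold, log2 0.66, SE 0.09, edgeR adjusted p = 3.33e-06). Both were higher in 8 of 8 mice. With 2 of 5 tested members higher and none lower, the background was 7.97% of all genes higher and 13.4% called. Markers of other cells were higher with TSLPR too (11 of 14 macrophage and dendritic cell, 6 of 7 MHC class II and 5 of 7 B and plasma cell genes), and with the MHC class II sum as a covariate the Ctsz call was lost (log2 0.47, adjusted p = 0.368) while that of Ctsb was kept. Ctsd, which was higher with ST2 but differed little by it in cancer TSLPR+ Treg, averaged 185 CPM with TSLPR and 206 without it. It was above in 4 mice and below in 4. The contrast of the single-positive gates put this side by side: in TSLPR+ST2- against TSLPR-ST2+ Treg, Ctsb was 1046 ± 136 against 762 ± 189 CPM (n = 8, 1.38-fold higher, log2 0.46, SE 0.10, edgeR adjusted p = 0.00737) and Ctsd 146 ± 22.7 against 246 ± 95.3 (1.68-fold lower, log2 -0.75, SE 0.17, edgeR adjusted p = 0.009). These were 1 higher and 1 lower of 5 tested members, where 1.4% of genes were higher, 1.27% lower and 2.67% called. The Ctsd call was lost with the macrophage and dendritic cell marker sum as a covariate (adjusted p = 0.0603), and both were lost with the MHC class II sum. As a description, Cst7 was 221 ± 31.1 against 136 ± 37.6 CPM in that contrast (1.62-fold), Ctsw 1.32-fold higher and Ctla2a 10.0 against 14.2 CPM (log2 -0.13). The ST2 and TSLPR contrasts use the same 32 libraries and the single-positive contrast 16 of them, so they are not independent of each other.

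No gene of the table passed for an interaction of ST2 with status, TSLPR with status or ST2 with TSLPR by edgeR (0% called of 14861; 926, 1178 and 1094 genes had an unadjusted p under 0.05). DESeq2 called 52, 58 and 120 genes and limma 0. Among the members DESeq2 called Ctsl alone, for ST2 by TSLPR, where the edgeR estimate was log2 2.12 (SE 0.59, adjusted p = 0.253): Ctsl was at 12.8 CPM on average in each TSLPR+ST2- group and at 31.9 and 49.9 in the TSLPR+ST2+ groups of naive and cancer mice. In the TSLPR- gates the Ctsl means without and with ST2 were 16.4 and 18.6 CPM in naive and 28.1 and 12.7 in cancer mice.

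**Figure D3:**
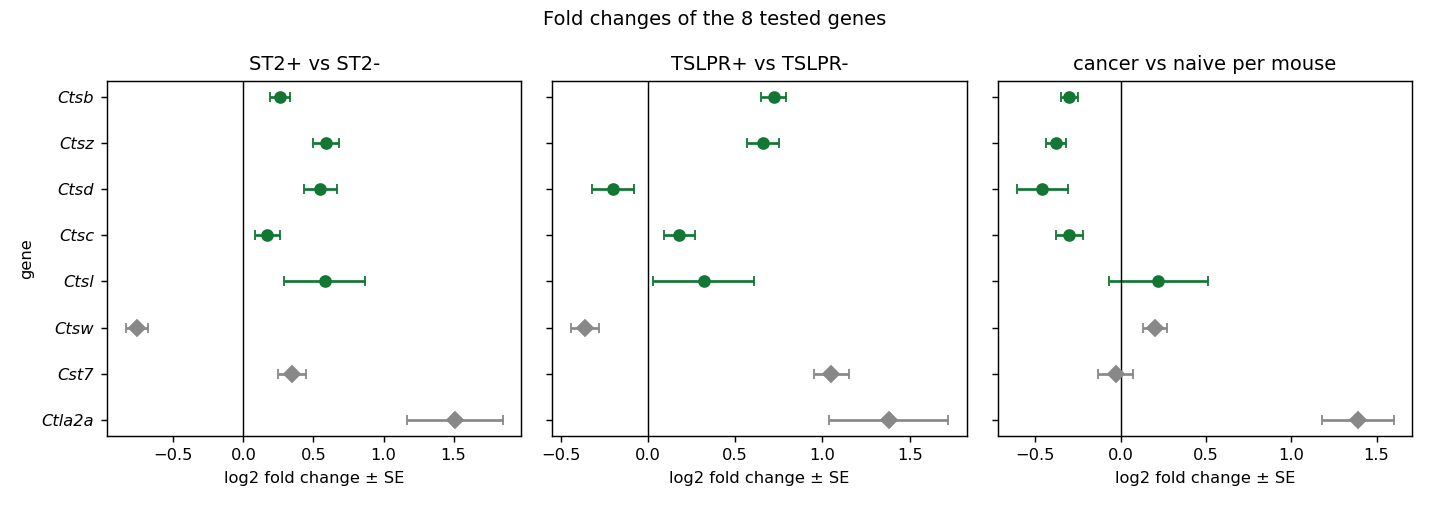
Log2 fold changes (x axis) with their standard errors for the 8 members that passed the filter, in ST2+ against ST2-, TSLPR+ against TSLPR- and cancer against naive mice (per-mouse sums); circles are tested members and grey diamonds the 3 members chosen for such differences. Ctsb and Ctsz lie to the right in both gate contrasts (0.26 and 0.59 with ST2, 0.72 and 0.66 with TSLPR) and to the left by status (-0.30 and -0.38), while Ctsw lies to the left in both gate contrasts.

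Ctsb, Ctsz, Ctsd and Ctsl are also abundant in macrophages, so markers of such cells were read in the same libraries. The summed level of 15 macrophage and dendritic cell markers was 16.5 to 177 CPM in naive TSLPR-ST2-, 638 to 2706 in TSLPR-ST2+, 275 to 662 in TSLPR+ST2- and 1450 to 2302 in TSLPR+ST2+. In the cancer mice it was 4.56 to 72.4, 352 to 2061, 160 to 1241 and 478 to 928 CPM in the same order. The sum thus moved with both receptors: 10 of 14 tested markers were higher with ST2 and 11 of 14 with TSLPR. Of epithelial markers 2 of 9 were higher with ST2 and 4 of 9 with TSLPR, and of B and plasma cell markers 1 of 7 and 5 of 7. Defining markers at 0 in all 4 libraries of a group included Cd14, Clec9a and Itgax in naive and Clec9a, Fcgr3 and Flt3 in cancer TSLPR-ST2-. Others were present there: Cd68 was at 1.46 to 9.05 CPM in the 8 TSLPR-ST2- libraries, and Lyz2 at 4.12 to 118 in the naive and 0 to 28.1 in the cancer ones. With the marker sum as a covariate, a choice made after the data were seen, the 3 ST2 calls were lost and both TSLPR calls were kept. The sum itself differs by gate, so this fit cannot separate the gates from the share of such cells. In the single-positive contrast the markers had a median log2 of -0.64, and Ctsb was higher and Ctsd lower. Of the 14 markers 0 passed by edgeR, 1 by DESeq2 and 1 by limma. At an unadjusted edgeR p under 0.05 there were 2, and 2507 of all 14861 genes. The lowest marker sum of all 32 libraries, 4.56 CPM with 0 counts of Lyz2, was in TSLPR-ST2- of cancer mouse 6, where Ctsb was at 604, Ctsz at 156 and Ctsd at 138 CPM. The lowest sum among the TSLPR+ libraries, 160, was in TSLPR+ST2- of the same mouse, with Ctsb at 1101. The MHC class II sum of that library was 1030 CPM, against 272 in TSLPR-ST2- of cancer mouse 6. What these single libraries mean for the source of Ctsb was not tested. TSLPR-ST2+ of naive mouse 3 had the largest sum, 2706, and within its group the highest Ctsb (1164), Ctsd (425), Ctsz (381) and Ctsc (394).

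Over the 32 libraries the Pearson correlation of log2 CPM with the marker sum was 0.77 for Ctsz, 0.69 for Ctsb, 0.47 for Ctsd and -0.71 for Ctsw. For deviations from the group means the values were 0.35, 0.44, 0.35 and -0.04, closer to 0 in each of these 4 genes. Ctsl went the other way, with 0.15 over all libraries and 0.44 within groups. For Ctla2a the correlation was 0.54 between libraries and 0.09 within groups, and for Cst7 0.48 and -0.19. All of these share libraries, totals and animals and are descriptions. Of 7 tested MHC class II genes 6 were higher with TSLPR and 3 with ST2, and their summed level was 842 to 2942 CPM in naive and 2632 to 7178 in cancer TSLPR+ST2+ libraries, and 118 to 811 in naive TSLPR-ST2-. Their correlation was 0.78 with Ctla2a and 0.73 with Cst7 between libraries, and 0.29 and 0.01 within groups. The use of that sum as a covariate was also chosen after the data were seen. The part of other cells in these results was not tested.

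**Figure D4:**
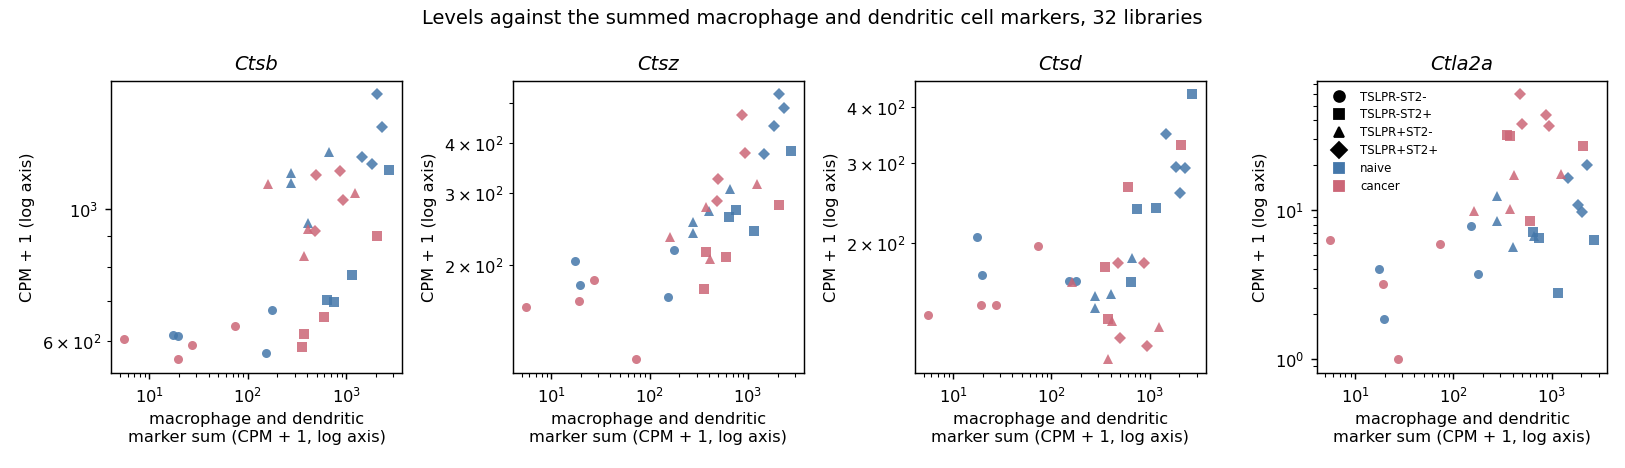
Levels of Ctsb, Ctsz, Ctsd and Ctla2a (y axes, CPM plus 1, log scale) against the summed level of 15 macrophage and dendritic cell markers (x axis, CPM plus 1, log scale) in the 32 Treg libraries, marked by gate and status. Ctsb stood at 604 CPM where the sum was 4.56 CPM and at 1164 where it was 2706, and Ctla2a was highest in the 4 cancer TSLPR+ST2+ libraries, whose sums were 478 to 928 CPM.

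Genes that work with the members were counted from lists chosen with earlier results of these data known. Of 8 tested inhibitors of cathepsins and granzymes other than the members, 6 were higher and none lower with TSLPR (list median log2 0.64, all genes 0.01). Over all genes 7.97% were higher with TSLPR and 3.7% with ST2, and the macrophage and dendritic cell markers were higher with both, which holds for each list that follows. Cstb, the cytosolic cystatin B, was at 103 ± 16.6 against 69.3 ± 11.6 CPM (1.49-fold, edgeR adjusted p = 1.19e-05). Cst3, the secreted cystatin C, was at 263 ± 86.0 against 158 ± 28.2 CPM (1.64-fold, adjusted p = 2.96e-05). Serpina3g was 2.00-fold higher (adjusted p = 0.000578) and Cst6 10.2-fold higher at a very low level, 1.76 against 0.283 CPM (adjusted p = 0.0059). These inhibitors had more transcript in the TSLPR+ gates, as Cst7 did. With ST2 none of the 8 passed by edgeR (3 at an unadjusted p under 0.05, 2 by DESeq2 and 0 by limma). Over all 14861 genes 2932 had an unadjusted edgeR p under 0.05 with ST2.

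Among 7 other tested cathepsins, 3 were higher with TSLPR and 2 with ST2, and none was lower (list median log2 0.09 and 0.12). Ctsh, an aminopeptidase, was at 69.0 ± 42.4 CPM in ST2+ and 10.1 ± 11.7 in ST2- libraries (11.9-fold, edgeR adjusted p = 1.05e-06) and was 5.10-fold higher with TSLPR (adjusted p = 0.00012). Ctsa, a lysosomal carboxypeptidase, was 1.30-fold higher with ST2 (adjusted p = 0.000284) and 1.32-fold higher with TSLPR (adjusted p = 5.75e-05), and Ctss, an antigen-processing protease of antigen-presenting cells, 1.15-fold higher with TSLPR (adjusted p = 0.0172). Of 13 granule genes, 5 were higher and 1 was lower with TSLPR and 1 was higher with ST2 (list median log2 0.11 and 0.26). Srgn, the proteoglycan core of the granule, was at 1040 ± 170 CPM in TSLPR+ and 692 ± 133 in TSLPR- libraries (1.51-fold, adjusted p = 2.05e-06) and was 1.2-fold higher with ST2 (adjusted p = 0.0355). Gzmb, granzyme B, was at 239 ± 216 against 34.6 ± 38.2 CPM by TSLPR (6.04-fold, adjusted p = 0.00344), Nkg7 was 3.48-fold (adjusted p = 0.00514) and Stx11 1.98-fold higher (adjusted p = 0.000389). Cst7, which limits the activation of granzymes, and Gzmb were both higher in TSLPR+ Treg, where Ctsw was lower.

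Of 32 lysosomal genes, 8 were higher and 1 was lower with TSLPR, and 5 were higher and 1 was lower with ST2. The list median was log2 0.10 with TSLPR and 0.20 with ST2 (all genes 0.01 and 0.00). Grn, the lysosomal progranulin, was 2.52-fold higher with TSLPR (edgeR adjusted p = 8.23e-06) and 1.63-fold with ST2 (adjusted p = 0.0188), Lgmn, the asparaginyl endopeptidase that cleaves several cathepsins, 2.11-fold with TSLPR (adjusted p = 0.000112), and Cd63 5.49-fold with ST2 (adjusted p = 0.000284). The 2 receptors that carry cathepsins to the lysosome moved apart: M6pr was higher with TSLPR (1.32-fold, adjusted p = 0.000962) and ST2 (1.31-fold, adjusted p = 0.00253), and Igf2r lower with both (1.78-fold, adjusted p = 4.71e-05, and 1.55-fold, 0.00263). Between cancer and naive mice 0 of 6 tested cathepsins, 8 inhibitors, 13 granule and 32 lysosomal genes passed per mouse by edgeR. At an unadjusted p under 0.05 there were 2, 3, 3 and 11, and 2586 of all 15338 genes. DESeq2 called 1, 2, 1 and 6, and over all genes it called more than edgeR, as given near the end. In TSLPR+ST2+ alone, Unc13d, which primes granules for release, was 3.18-fold lower (adjusted p = 0.0298) and Laptm5, a lysosomal membrane protein, 1.45-fold lower (adjusted p = 0.0124) in cancer mice, while 0 of 7 cathepsins (2 at an unadjusted p under 0.05, 0 by DESeq2) and 0 of 8 inhibitors (2, and 1 by DESeq2) passed. Over all 14861 genes 3001 had an unadjusted p under 0.05 by status in TSLPR+ST2+. Between the single-positive gates 0 genes of the 4 lists passed by edgeR. At an unadjusted p under 0.05 there were 1 cathepsin, 5 inhibitors, 8 granule and 6 lysosomal genes, and 2507 of all 14861 genes. DESeq2 called 0, 2, 5 and 1 of the lists.

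Among the members, Ctsb and Ctsz varied together (Pearson r of log2 CPM 0.85 over 32 libraries, 0.60 for deviations from group means), and Ctsb and Ctsd did so mainly within groups (0.29 and 0.59). Ctsb and Cst7, both higher with TSLPR, had 0.76 between libraries and -0.05 within groups, and Ctsw and Ctsz -0.78 and -0.22. Over the same libraries the genes whose pattern was most like that of Cst7 were Icos (0.874), Tigit (0.868), Pdcd1 (0.855), Ndfip1 (0.851) and Srgn (0.844). For Ctla2a they were Ttc39c (0.863), Lxn (0.839), S100a6 (0.818), H2-Aa (0.818) and Rora (0.809), and for Ctsw Thada (0.855), Rexo2 (0.813), Ms4a6b (0.808), Bcl2 (0.805) and Ramp1 (0.8). For deviations from group means the values were lower, at 0.171 (Pdcd1) to 0.617 (Tigit) for Cst7 and 0.282 (Bcl2) to 0.628 (Ms4a6b) for Ctsw. For Ctla2a they were 0.36 (Rora) to 0.726 (Ttc39c), with H2-Aa at 0.646. These correlations use libraries that share groups, animals and depth, and are descriptions of likeness only.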

How the data were processed

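RNA was measured in 33 libraries, of which 32 are Treg in 8 groups of 4 mice (4 naive, 4 cancer) and 1 holds Foxp3-negative CD44low T cells. Libraries of 200 cells were made with SMART-Seq v4 and Nextera XT and read as 58-base single reads, per the labels' protocols. The authors deposited raw read counts per Ensembl gene (53465 genes, 53274 with a symbol). The submitters' processing notes name HTSeq 0.4.1, Picard 1.134, FastQC 0.11.3, SAMtools 1.2 and GRCm38; the aligner, annotation release and strand setting were not given in the sources used here. Positions are from GENCODE M21.

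The members and lists were chosen with earlier results of these data known. Counts were tested with edgeR 4.0.16 (R 4.3.3): TMM scaling, filterByExpr (minimum count 10, minimum total 15), a robust quasi-likelihood F-test and Benjamini-Hochberg adjustment at 0.05 over all genes tested. A group-means model of the 32 Treg libraries tested 14861 genes, and sums of the 4 gates of each mouse tested 15338. Folds are model estimates and CPM use TMM-scaled totals, so both can differ from ratios of the printed means. Member test values are printed where they pass. From each other list the genes named are at most 4 per comparison, those with the smallest adjusted p among the called. Alternatives were DESeq2 1.42.0, limma 3.58.1 with the mouse as a random effect, no filter, other scaling, fits to fewer libraries, covariates, a mouse block and each mouse left out. Scripts were tested on simulated data.

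The 4 gates of a mouse come from the same animal, per the labels. Deviations from group means correlated at 0.00837 on average over 48 same-mouse pairs and at -0.00279 over 144 pairs of different mice. Depth ranged from 4038718 to 8839946 counts, and intervals and limits cover counting error only. A mock treatment of the naive mice, and the days of sorting, were not given in the sources used here.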

Additional observations from a re-analysis of the deposited data

Results flagged for a closer look

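In groups of 4 libraries, 5 of 64 had 1 library whose gap to the nearest other was, as a share of the group's range, above Dixon's 95% critical value for 4 samples; chance gives about 1 in 20 such groups. Ctsw in cancer TSLPR+ST2+ Treg was at 307 CPM in mouse 5 and 164 to 183 in the other 3 mice, and that library is 1 of the 2 whose Crlf2 level goes against the label. Ctsb in naive TSLPR-ST2+ Treg was at 1164 CPM in mouse 3 and 696 to 775 in the others. Ctsc in naive TSLPR+ST2+ Treg was at 416 CPM in mouse 1 and 268 to 293 in the others. Ctsd in naive TSLPR-ST2- Treg was at 206 CPM in mouse 3 and 164 to 169 in the others. Ctsd in cancer TSLPR-ST2- Treg was at 196 CPM in mouse 5 and 138 to 145 in the others.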

How the results depend on the processing

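Among the called member results and the chosen estimates of Ctla2a, Cst7 and Ctsw, no direction reversed under any alternative run. Directions of the other estimates were not followed. For Ctsb in TSLPR+ against TSLPR- Treg, all 18 alternatives kept the call (adjusted p 2.77e-21 to 0.0308). Cancer against naive per mouse called 2 members; the count was 1 (Ctsz) without the filter on low counts, 3 with DESeq2 (Ctsc added), 2 as the mean of the 4 gate contrasts (Ctsz and Ctsd, with Ctsb at adjusted p 0.0626), 0 with the mitochondrial share, the macrophage and dendritic cell marker sum or the MHC class II sum as a covariate, and 0 to 0 when each mouse was left out. The 2 marker covariates were chosen after seeing the data. In TSLPR+ST2+ Treg the 1 call (Ctsd) became 0 with each of these covariates (mitochondrial share log2 -0.06; marker sum -0.82, adjusted p 0.0618; MHC class II -0.86, adjusted p 0.103), 0 in a fit to the 8 libraries of the gate, 0 without the 2 doubted libraries of mouse 5, and 0 to 1 when each mouse was left out (lost without mouse 4, 0.0648, and mouse 5, 0.0649). With ST2 the 3 calls became 0 with the macrophage and dendritic cell marker sum and were 2 to 3 without each mouse. With TSLPR the 2 calls became 1 with the MHC class II sum and stayed at 2 to 2 without each mouse. Between the single-positive gates the 2 calls became 1 with the macrophage and dendritic cell marker sum (Ctsd adjusted p 0.0603), 0 with the MHC class II sum and 1 to 2 without each mouse. For ST2 by TSLPR the count of 0 became 1 with DESeq2 (Ctsl). The cause of these changes was not tested. Fits with the mouse as a replicate block called 3 members with ST2, 2 with TSLPR and 2 between the single-positive gates, as without the block, and 0 for interactions. Over the alternatives the described log2 estimates ranged from 1.42 to 1.94 for Ctla2a by status in TSLPR+ST2+, 0.99 to 1.16 for Cst7 with TSLPR and -0.81 to -0.71 for Ctsw with ST2. The Ctla2a estimates by gate moved more, from 0.71 to 1.76 with TSLPR (main fit 1.38) and from 1.15 to 1.83 with ST2 (main fit 1.51). By status in TSLPR-ST2+ Ctla2a ranged from 1.87 to 2.62. Over all genes, DESeq2 called 1320 per mouse (edgeR 186) and 1316 in TSLPR+ST2+ (edgeR 618). Depth limits Ctla2b, with 45 counts in all.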

Other observations

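The 1 library of Foxp3-negative CD44low T cells, a naive T cell sort with no replicate, gives levels of the same genes outside Treg. Values are plain CPM with exact 95% Clopper-Pearson intervals, which cover counting error only, beside the range of the 16 naive Treg libraries. Cst7 was at 13.7 (11.1 to 16.7) against 66.5 to 317 in Treg, and Ctla2a at 0.854 (6 counts, 0.314 to 1.86) against 0.866 to 19.2. Ctsb was at 414 (399 to 429) against 571 to 1540, Ctsz at 131 (122 to 139) against 166 to 519 and Ctsl at 4.27 (2.88 to 6.1) against 8.32 to 53.9. These 5 genes were lower than in each naive Treg library, although the interval of Ctla2a overlaps the Treg range. Ctsw at 225 (214 to 237), Ctsc at 265 (253 to 277) and Ctsd at 189 (179 to 199) lay inside the Treg ranges of 167 to 427, 195 to 417 and 144 to 412. Ctla2b held 0 counts, which allows up to 0.427 CPM (3 counts).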
